A study of Mus musculus with 8 samples.

Results

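The genes described here are 42 imprinted genes of the mouse, which lie at 17 loci. They were taken by name as known members of imprinted clusters or as single imprinted genes, with earlier results of these data known. They were grouped by locus and by the parental allele that is expressed. Of these, 23 are known as expressed from the paternal allele and 18 from the maternal allele, and *Gnas* gives paternal, maternal or biallelic transcripts depending on the promoter. The microarray had a named probe for 40 of the 42 genes, among 19751 named genes in all, and 37 of them could be tested, among 13653 genes tested. *H19* and *Rian* had no probe that was matched through its accession, and the probes of *Zim1*, *Rtl1* and *Kcnq1* were too dim to test.

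An imprinted gene is transcribed from the copy inherited from one parent, because DNA methylation laid down in the egg or the sperm marks a control region near it. The mark is kept through the wave of demethylation in the early embryo with the help of the zinc finger protein ZFP57 and its partner TRIM28, and it is erased in primordial germ cells and laid down again according to sex. Many imprinted genes regulate growth of the embryo and the placenta, and cultured ESC lines are known to vary in their imprints.

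RNA came from VV3 ESCs, a male mouse ESC line that carries a *Vasa*::Venus transgene as a reporter of germ cell differentiation and is grown on STO feeder cells, a fibroblast line. The 4 control samples received AllStars siRNA, which has no target, and the 4 *L3mbtl2*-KD samples received siRNA against *L3mbtl2*, a Polycomb group protein of the PCGF6-PRC1 complex. In the study's methods, FACS for the reporter was used to purify Vasa-positive cells from the *L3mbtl2*-KD cultures, so both the siRNA and the sort set this group apart, and whether the control cells of these arrays were sorted is not stated. All samples come from this single cell line. Array RNA holds the transcripts of both alleles, so no value here shows which parental allele was transcribed.

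One-colour arrays were used, 1 per sample, each with 43020 spots for genes and transcripts. The 75th percentile of intensity over these spots was 871, 854, 1024 and 953 in control replicates 1 to 4 and 832, 791, 1038 and 931 in *L3mbtl2*-KD replicates 1 to 4. Well above background were 66.6, 64.9, 62.0 and 64.6% of spots in the control samples and 63.9, 61.5, 61.6 and 59.5% in the *L3mbtl2*-KD samples, and the number of arrays limits the precision. Replicates 1 and 2 of both groups lay on slide 1 and replicates 3 and 4 on slide 2. The groups shared 0 positions on the slides, so position and siRNA cannot be told apart. Values below are log2 intensities minus the 75th percentile of the array, given for replicates 1 to 4 in that order, and a log2 fold change is the mean of the *L3mbtl2*-KD samples minus the mean of the control samples, with its standard error (SE). A gene was called up-regulated or down-regulated when 1 probe or more differed by over 2-fold at an adjusted p under 0.05 (limma, 4 samples per group, adjusted by Benjamini-Hochberg across the tested probes). "Lower" or "higher at adjusted p" leaves out the fold threshold.

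The siRNA target was examined first. *L3mbtl2* (NM_145993) was at 0.27, -0.18, -0.21 and -0.31 in control ESCs and -1.45, -1.26, -1.58 and -1.73 in *L3mbtl2*-KD ESCs. All 4 *L3mbtl2*-KD samples lay below all control samples (log2 fold change -1.40, SE 0.152, limma adjusted p = 0.000945), with -1.40 on slide 1 and -1.40 on slide 2.

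The comparison asks which imprinted genes differ in level between *L3mbtl2*-KD and control ESCs. Among all 13653 genes tested, 438 (3.21%) were down-regulated and 340 (2.49%) were up-regulated, and 1603 (11.7%) were lower and 1406 (10.3%) higher at adjusted p. Of the 37 imprinted genes tested, 6 (16.2%) were down-regulated by limma's test, namely *Peg3*, *Dlk1*, *Mest*, *Plagl1*, *Meg3* and *Asb4*. Another 4, *Mirg*, *Slc22a18*, *Sgce* and *Impact*, were lower at adjusted p by less than 2-fold, which makes 10 of 37 (27.0%). In the other direction *Mcts2* and *H13* were higher at adjusted p, 2 of 37 (5.41%). None of the 37 was up-regulated by limma's test, at an adjusted or an unadjusted p, since the highest fitted change among their probes was 0.68 on the log2 scale, and the methods' one-way test called 0 too. The remaining 25 did not pass the test. With the replicate number as a block, 15 of the 37 (40.5%) were lower and 4 (10.8%) higher at adjusted p. Over all genes that block gave 26% lower and 23.9% higher. The median log2 fold change of the 37 genes, with the brightest probe of each, was -0.25 (-0.18 on slide 1 and -0.28 on slide 2), and 27 had a negative and 10 a positive value. Over all genes the same median was -0.011. These are counts over the genes that passed the filter on dim probes. On every array, 33 of the 37 were well above background, while *Usp29*, *Dio3*, *Igf2* and *Asb4* passed through the control samples and missed that level on at least 1 *L3mbtl2*-KD array.

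Genes of both parental origins were among those that fell. Of the 22 paternally expressed genes tested, 4 were down-regulated, 6 were lower and 1 was higher at adjusted p, with a median log2 fold change of -0.43 (-0.30 on slide 1 and -0.53 on slide 2). Of the 14 maternally expressed genes tested, 2 were down-regulated, 4 were lower and 1 was higher, with a median of -0.044 (-0.026 and -0.071). With the replicate number as a block, the paternally expressed *Airn*, *Nnat*, *Snrpn* (by a dim probe), *Zdbf2* and *Slc38a4* were lower at adjusted p as well. The maternally expressed *Igf2r* and *Cdkn1c* were then higher as well. For some of the genes imprinting depends on tissue, for example *Ube3a*, *Igf2r* and *Grb10*, which are counted as maternal here. Which of the genes are imprinted in these ESCs was not measured. The difference between the origins was not tested. Of the 17 loci, 8 had a member past the adjusted p in some direction.

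**Figure D1:**
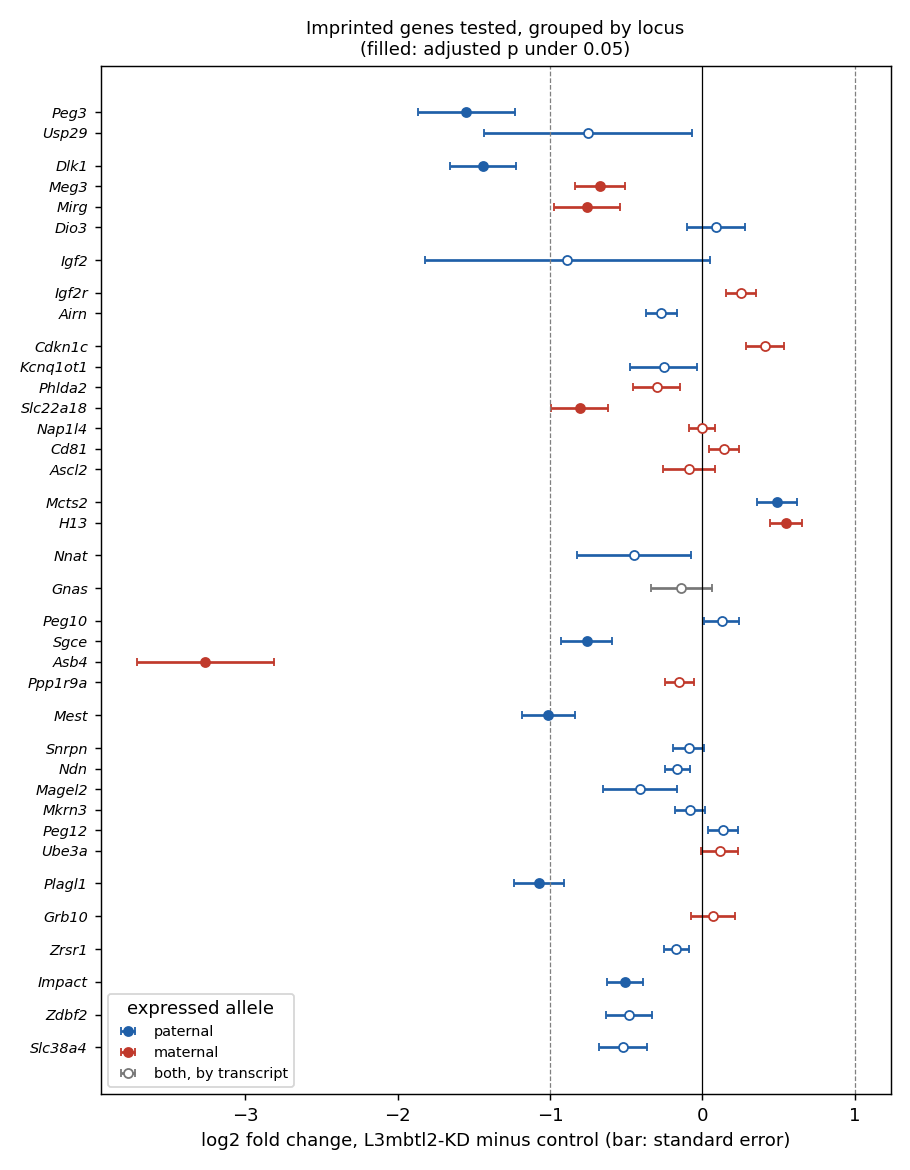
Log2 fold change (*L3mbtl2*-KD minus control, points) with its standard error (bars) for the 37 imprinted genes tested, 4 samples per group, with the brightest probe of each gene, ordered by locus and coloured by the expressed allele. Filled points have a limma adjusted p under 0.05 and dashed lines mark a 2-fold change. *Peg3* at -1.55 and *Dlk1* at -1.44 lie to the left, and the filled points on the right are *Mcts2* and *H13*. *Asb4*, which also lies to the left, is dim in *L3mbtl2*-KD ESCs, and its fall is given in the text against a floor.

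*Peg3*, paternally expressed, encodes a zinc finger protein that acts in growth and maternal behaviour, and *Usp29*, paternally expressed too, encodes a ubiquitin-specific protease. Their starts lie back to back, on opposite strands of chromosome 7, so a single short stretch lies between them. The sequence of that stretch (163 bases, chr7:6730420-6730582, plus strand, GRCm38.p6, from RefSeq) is shown because one neighbour passed the test and the other did not. Capitals in this and the other promoter sequences mark matches on either strand of CACGTG (the E-box that MAX dimers bind), TTCCCGCC (an E2F-like motif) or TGCCGC (the core bound by ZFP57), and this stretch has no match.
between *Peg3* and *Usp29*: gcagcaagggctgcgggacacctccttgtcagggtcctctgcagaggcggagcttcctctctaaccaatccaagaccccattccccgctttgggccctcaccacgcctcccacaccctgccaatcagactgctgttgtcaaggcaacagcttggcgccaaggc

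*Peg3* (NM_008817) was at -0.49, -0.84, 0.40 and 0.42 in control ESCs and -1.91, -2.01, -1.17 and -1.61 in *L3mbtl2*-KD ESCs. The groups did not overlap, and control replicates 3 and 4 were the high ones. Its log2 fold change was -1.55 (SE 0.318, limma adjusted p = 0.0128), 2.93-fold lower, with -1.29 on slide 1 and -1.81 on slide 2. A dimmer *Peg3* probe gave -1.69 (limma adjusted p = 0.000588), or -0.96 with normexp correction. *Usp29* was dim, at -5.14, -3.48, -3.93 and -4.14 in control ESCs and -6.60, -3.04, -5.23 and -4.83 in *L3mbtl2*-KD ESCs. The groups overlapped, with *L3mbtl2*-KD replicate 2 the highest and replicate 1 the lowest of all 8 samples, and the log2 fold change of -0.75 (SE 0.684, limma adjusted p = 0.49) did not pass the test. It ran from -1.38 (without *L3mbtl2*-KD replicate 2) to -0.19 with single samples left out and was -0.12 with normexp correction. *Zim1*, the maternally expressed zinc finger gene of this locus, was well above background on 1 control array and on 0 *L3mbtl2*-KD arrays, so no fold change is given.

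The *Dlk1*-*Dio3* cluster on chromosome 12 pairs paternally expressed coding genes with maternally expressed noncoding RNAs. *Dlk1* encodes a transmembrane protein with EGF-like repeats that holds back adipocyte differentiation, and *Meg3* gives a long noncoding RNA. Genes of opposite parental origin fell here, and the 250 bases before a start of each (plus strand, GRCm38.p6, RefSeq) are shown for that reason, chr12:109452573-109452822 for *Dlk1* and chr12:109540746-109540995 for *Meg3*. The *Dlk1* window has no match to the 3 motifs and the *Meg3* window has 1 match to TGCCGC, while the window of the other *Meg3* start in the table has none.
*Dlk1*: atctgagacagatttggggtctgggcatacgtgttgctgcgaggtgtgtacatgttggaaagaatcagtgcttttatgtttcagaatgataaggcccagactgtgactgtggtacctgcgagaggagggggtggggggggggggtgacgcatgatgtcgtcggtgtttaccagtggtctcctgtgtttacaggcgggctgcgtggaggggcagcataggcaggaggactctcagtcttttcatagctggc
*Meg3*: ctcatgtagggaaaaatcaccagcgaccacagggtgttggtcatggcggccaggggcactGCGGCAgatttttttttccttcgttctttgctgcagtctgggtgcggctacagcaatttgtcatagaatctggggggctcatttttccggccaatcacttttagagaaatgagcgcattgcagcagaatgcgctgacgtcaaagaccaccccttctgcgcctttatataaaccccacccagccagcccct

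*Dlk1* was at -0.27, -0.12, -0.049 and 0.55 in control ESCs and -1.31, -1.88, -1.36 and -1.09 in *L3mbtl2*-KD ESCs. Every *L3mbtl2*-KD sample lay more than a control standard deviation below the lowest control sample. The log2 fold change was -1.44 (SE 0.216, limma adjusted p = 0.00361), 2.71-fold lower, with -1.40 on slide 1 and -1.47 on slide 2, and a dimmer probe gave -1.496, or -0.82 with normexp correction. *Meg3*, by its brightest probe (NR_027652), was at 2.84, 2.99, 3.31 and 3.40 in control ESCs and 2.37, 2.16, 2.60 and 2.72 in *L3mbtl2*-KD ESCs. The groups did not overlap, and replicates 3 and 4 were above replicates 1 and 2 in both groups. That probe fell by less than 2-fold (log2 fold change -0.67, SE 0.165, limma adjusted p = 0.0253), with -0.65 on slide 1 and -0.69 on slide 2, and missed the adjusted p without control replicates 3 or 4 or *L3mbtl2*-KD replicates 1 or 2 (range over alternatives 0.00161 to 0.0741). The call of *Meg3* came from a dimmer probe for another transcript record (NR_003633), which was at -2.08, -1.72, -1.82 and -1.503 in control ESCs and -2.63, -2.94, -2.51 and -3.05 in *L3mbtl2*-KD ESCs. It was the member closest inside the 2-fold threshold, 2.01-fold lower (log2 fold change -1.004, SE 0.16, limma adjusted p = 0.0046). Its log2 fold change was -0.98 without control replicate 2, -0.91 without control replicate 4, -0.95 without *L3mbtl2*-KD replicate 2 and -0.91 without *L3mbtl2*-KD replicate 4, -0.73 with normexp background correction and -0.91 with quantile normalization, so the 2-fold call was lost each time. Another *Meg3* probe had a log2 fold change of -0.44 (limma adjusted p = 0.0786) and passed with the replicate number as a block (adjusted p = 0.0372).

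*Mirg*, a maternally expressed host transcript of microRNAs at the far end of the same noncoding unit, was at 1.21, 0.90, 1.13 and 1.43 in control ESCs and 0.52, -0.21, 0.50 and 0.84 in *L3mbtl2*-KD ESCs. *L3mbtl2*-KD replicate 2 was the low sample and the groups did not overlap. Its log2 fold change was -0.76 (SE 0.218, -0.90 on slide 1 and -0.61 on slide 2). Its limma adjusted p of 0.0444 was the closest inside the threshold among the members, and *Mirg* missed it without control replicates 1, 2, 3 or 4 and without *L3mbtl2*-KD replicates 1 or 3, with adjusted p between 0.0539 and 0.106. *Dio3*, whose product inactivates thyroid hormone, was dim in both groups (-5.07 ± 0.23 in control ESCs and -4.98 ± 0.35 in *L3mbtl2*-KD ESCs, SD, n = 4 each), and its log2 fold change of 0.091 did not pass the test. *Rtl1*, a retrotransposon-derived gene of the placenta, was well above background on 0 control arrays and 1 *L3mbtl2*-KD array.

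**Figure D2:**
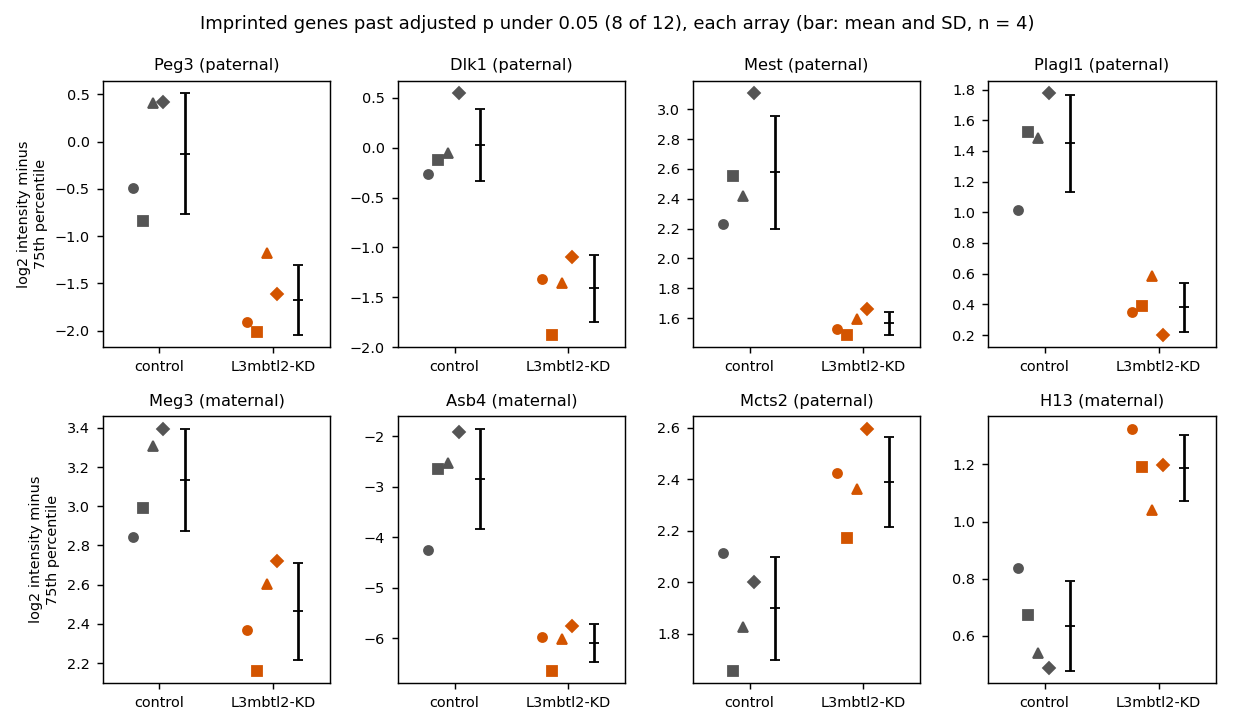
Log2 intensity minus the 75th percentile of the array (vertical axis) in each of the 4 control and 4 *L3mbtl2*-KD samples for 8 of the 12 imprinted genes past a limma adjusted p of 0.05, with the brightest probe of each. Circles, squares, triangles and diamonds are replicates 1 to 4, and bars show mean and SD. The groups do not overlap in any of the 8 panels, and *Mcts2* and *H13* are higher in *L3mbtl2*-KD ESCs.

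*Mest* and *Plagl1* are paternally expressed genes that stand apart from the large clusters. *Mest* encodes a protein of the hydrolase family that is abundant in mesoderm, and *Plagl1* encodes a zinc finger transcription factor known for regulating other imprinted genes. Both fell close to 2-fold, and the 250 bases before a start of each (plus strand, GRCm38.p6, RefSeq) are shown because they hold motif matches. The *Mest* window, chr6:30737800-30738049, has 2 matches to TGCCGC, and the *Plagl1* window, chr10:13090582-13090831, has 1 match each to CACGTG and TGCCGC.
*Mest*: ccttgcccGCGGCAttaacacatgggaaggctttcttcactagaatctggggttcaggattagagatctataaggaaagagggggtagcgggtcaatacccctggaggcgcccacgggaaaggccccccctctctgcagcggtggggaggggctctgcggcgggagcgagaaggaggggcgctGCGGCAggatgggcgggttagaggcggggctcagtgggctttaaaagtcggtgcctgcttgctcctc
*Plagl1*: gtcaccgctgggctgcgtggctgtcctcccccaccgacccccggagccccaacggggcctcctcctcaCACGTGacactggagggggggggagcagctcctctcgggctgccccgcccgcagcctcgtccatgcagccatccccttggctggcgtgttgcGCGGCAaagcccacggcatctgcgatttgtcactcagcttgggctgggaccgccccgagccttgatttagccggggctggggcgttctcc

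*Mest* was at 2.23, 2.55, 2.42 and 3.11 in control ESCs and 1.53, 1.48, 1.59 and 1.66 in *L3mbtl2*-KD ESCs. The *L3mbtl2*-KD samples were close together and below every control sample, and control replicate 4 was the high one. The log2 fold change was -1.01 (SE 0.175, limma adjusted p = 0.0064), 2.01-fold lower, with -0.88 on slide 1 and -1.14 on slide 2. The other *Mest* probes gave -0.87 and -1.06. *Plagl1* was at 1.02, 1.52, 1.49 and 1.78 in control ESCs and 0.35, 0.39, 0.58 and 0.20 in *L3mbtl2*-KD ESCs. The groups did not overlap, control replicate 4 was again the highest and control replicate 1 the lowest of its group. The log2 fold change was -1.07 (SE 0.163, limma adjusted p = 0.00376), with -0.90 on slide 1 and -1.24 on slide 2, and the next brightest probe gave -1.04. A pair of dim *Plagl1* probes had log2 fold changes of 0.31 and -0.043 and did not pass the test (limma adjusted p = 0.449 and 0.888). Without control replicate 4 both genes were lower by less than 2-fold, at -0.83 for the brightest and -0.96 for the lowest *Mest* probe and -0.96 for *Plagl1*. With normexp background correction the *Mest* probes were at -0.999, -0.87 and -0.75, and the 2-fold call was lost.

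The *Peg10* locus on chromosome 6 holds paternally expressed genes side by side with maternally expressed ones. *Sgce*, paternally expressed, encodes epsilon-sarcoglycan and starts next to *Peg10*. It was at -0.29, 0.21, 0.27 and 0.16 in control ESCs and -1.06, -0.59, -0.43 and -0.61 in *L3mbtl2*-KD ESCs. Replicate 1 was the lowest sample in both groups, the groups did not overlap, and *Sgce* fell by less than 2-fold (log2 fold change -0.76, SE 0.17, limma adjusted p = 0.0179; -0.79 on slide 1 and -0.73 on slide 2). Without control replicate 3 it was at -0.70 with an adjusted p of 0.0555. *Peg10*, a gene derived from a retrotransposon and needed in the placenta, was at -1.55, -1.56, -1.87 and -1.59 in control ESCs and -1.38, -1.38, -1.75 and -1.55 in *L3mbtl2*-KD ESCs. The groups overlapped, and its log2 fold change of 0.13 (SE 0.117, limma adjusted p = 0.498) was within the spread between samples.

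*Asb4*, a maternally expressed gene of the same locus whose product is an adaptor of ubiquitin ligases, was at -4.24, -2.65, -2.53 and -1.92 in control ESCs and -5.97, -6.64, -6.01 and -5.76 in *L3mbtl2*-KD ESCs. It was well above background on 4 of 4 control arrays and on 0 of 4 *L3mbtl2*-KD arrays, and control replicate 1 was the low control sample. Since the *L3mbtl2*-KD signal is dim, the size of the fall is given against a floor. That floor is the lowest signal found well above background on each *L3mbtl2*-KD array. Against it *Asb4* was 6.33-fold lower. The fitted change was -3.26 (SE 0.451, limma adjusted p = 0.00255), with -2.86 on slide 1 and -3.66 on slide 2. The value against the floor is no lower limit, since normexp correction, with its added offset, gave a smaller fitted change of -1.14. A dimmer *Asb4* probe had a log2 fold change of -0.37 and did not pass the test (adjusted p = 0.0836), and it passed with the replicate number as a block (adjusted p = 0.0231). *Ppp1r9a*, which encodes the actin-binding protein neurabin, had a log2 fold change of -0.15 and did not pass the test.

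*Mcts2* and *H13* on chromosome 2 are a nested pair: *Mcts2* is a paternally expressed retrogene inside an intron of *H13*, and *H13*, which encodes a signal peptide peptidase, has maternally expressed full-length transcripts. They are the members past the test in the upward direction. The 250 bases before the start of *Mcts2* (chr2:152686898-152687147, plus strand, GRCm38.p6, RefSeq), which lie within *H13*, hold 1 match each to CACGTG and TGCCGC. The window before the start of *H13*, which is not shown, has no match to any of the motifs.
*Mcts2*: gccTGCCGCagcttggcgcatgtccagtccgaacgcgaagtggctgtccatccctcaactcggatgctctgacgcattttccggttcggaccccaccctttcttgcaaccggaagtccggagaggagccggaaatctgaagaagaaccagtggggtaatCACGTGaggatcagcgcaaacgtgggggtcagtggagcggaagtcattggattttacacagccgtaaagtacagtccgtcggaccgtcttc

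*Mcts2* was at 2.11, 1.66, 1.82 and 2.00 in control ESCs and 2.43, 2.17, 2.36 and 2.60 in *L3mbtl2*-KD ESCs. The lowest *L3mbtl2*-KD sample, replicate 2, lay just above the highest control sample, replicate 1. *Mcts2* rose by less than 2-fold (log2 fold change 0.49, SE 0.13, limma adjusted p = 0.0331; 0.41 on slide 1 and 0.57 on slide 2). It missed the adjusted p without control replicates 2, 3 or 4 and without *L3mbtl2*-KD replicates 1, 3 or 4, with values between 0.0552 and 0.0896. *H13* was at 0.84, 0.67, 0.54 and 0.49 in control ESCs and 1.33, 1.19, 1.04 and 1.20 in *L3mbtl2*-KD ESCs. The groups stood well apart, and the log2 fold change was 0.55 (SE 0.105, limma adjusted p = 0.00956; 0.50 on slide 1 and 0.60 on slide 2), which is 1.47-fold. Other *H13* probes gave 0.68 (adjusted p = 0.00623), 0.28 and 0.56, the last pair short of the test. Both genes of the pair rose, although they are known as expressed from opposite parental alleles, which was not measured here.

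*Igf2* and *H19* share enhancers on chromosome 7, and *Igf2* encodes a major growth factor of the embryo. *Igf2* was dim, at -4.71, -3.94, -3.50 and -2.85 in control ESCs and -7.26, -2.34, -5.10 and -3.84 in *L3mbtl2*-KD ESCs. The groups overlapped, *L3mbtl2*-KD replicate 1 was the low sample by a wide margin, and the log2 fold change of -0.89 (SE 0.934, limma adjusted p = 0.554) became -0.011 without that sample and -1.65 without *L3mbtl2*-KD replicate 2. *Igf2r*, maternally expressed, encodes the receptor that clears IGF2, and *Airn* is the paternally expressed noncoding RNA that runs antisense through it. *Igf2r* was at 1.48, 1.55, 1.28 and 1.28 in control ESCs and 1.65, 1.81, 1.61 and 1.54 in *L3mbtl2*-KD ESCs. *Airn* was at -1.46, -1.17, -1.32 and -1.31 in control ESCs and -1.58, -1.40, -1.60 and -1.75 in *L3mbtl2*-KD ESCs. The groups overlapped for both genes. The log2 fold change was 0.25 for *Igf2r* (SE 0.1, limma adjusted p = 0.114) and -0.27 for *Airn* (SE 0.102, limma adjusted p = 0.101), so neither passed the test. With the replicate number as a block both passed, with adjusted p = 0.0128 for *Igf2r* and 0.0285 for *Airn*, higher for the receptor and lower for its antisense transcript. Within the slides *Igf2r* had 0.21 on slide 1 and 0.30 on slide 2, and *Airn* had -0.18 on slide 1 and -0.36 on slide 2.

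The *Kcnq1* domain on chromosome 7 is ruled by *Kcnq1ot1*, a paternally expressed noncoding RNA that silences coding genes on its own chromosome. *Kcnq1ot1* was at -0.52, -0.10, -0.51 and -0.32 in control ESCs and -0.17, -0.39, -0.68 and -1.22 in *L3mbtl2*-KD ESCs. Replicate 4 was the low *L3mbtl2*-KD sample, the groups overlapped, and the log2 fold change of -0.25 (limma adjusted p = 0.461) did not pass the test. That value ran from -0.40 without *L3mbtl2*-KD replicate 1 to -0.052 without *L3mbtl2*-KD replicate 4. *Cdkn1c*, a maternally expressed inhibitor of cyclin-dependent kinases, was at 1.24, 1.15, 1.22 and 1.70 in control ESCs and 1.72, 1.69, 1.70 and 1.85 in *L3mbtl2*-KD ESCs. Control replicate 4 stood above the other control samples and overlapped with the *L3mbtl2*-KD values. The log2 fold change was 0.41 (SE 0.128, limma adjusted p = 0.0568), just outside the threshold. It was 0.54 without control replicate 4 and then passed, as it did with the replicate number as a block (adjusted p = 0.0145).

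*Slc22a18*, a maternally expressed gene of the same domain for a membrane transporter, was at -1.24, -1.58, -1.06 and -1.70 in control ESCs and -2.49, -1.80, -2.22 and -2.30 in *L3mbtl2*-KD ESCs. *L3mbtl2*-KD replicate 2 was the highest of its group, the groups did not overlap, and *Slc22a18* fell by less than 2-fold (log2 fold change -0.81, SE 0.187, limma adjusted p = 0.0205; -0.73 on slide 1 and -0.88 on slide 2). Of the members past the adjusted p it was the closest outside the 2-fold threshold. Its adjusted p was 0.0561 without control replicate 3, 0.0514 without *L3mbtl2*-KD replicate 3 and 0.0557 without *L3mbtl2*-KD replicate 4. The other maternally expressed genes of the domain did not pass the test. Their log2 fold changes were -0.30 for *Phlda2*, which limits placental growth, 0.14 for the tetraspanin gene *Cd81*, -0.087 for the trophoblast transcription factor *Ascl2* and -0.00063 for the histone chaperone gene *Nap1l4*, whose sign turned with normexp background correction and with the authors' table. *Kcnq1*, the potassium channel gene, was not well above background in enough samples to test.

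*Impact*, paternally expressed, encodes a regulator of translation under amino acid starvation. It was at 2.31, 1.89, 2.17 and 1.96 in control ESCs and 1.78, 1.43, 1.56 and 1.52 in *L3mbtl2*-KD ESCs. The groups did not overlap, and *Impact* fell by less than 2-fold (log2 fold change -0.51, SE 0.121, limma adjusted p = 0.0223; -0.49 on slide 1 and -0.52 on slide 2). Its adjusted p was 0.0671 without control replicate 3 and 0.0515, 0.0577 and 0.0589 without *L3mbtl2*-KD replicates 2, 3 and 4. A dimmer *Impact* probe had a log2 fold change of -0.51 with groups that overlapped and did not pass (adjusted p = 0.122, or 0.0426 with the replicate number as a block). *Slc38a4* and *Zdbf2* are paternally expressed too, and *Slc38a4* encodes an amino acid transporter. Both had values near that of *Impact* and missed the threshold. *Slc38a4* had a log2 fold change of -0.52 (SE 0.157, limma adjusted p = 0.0528), and *Zdbf2* one of -0.48 (SE 0.154, limma adjusted p = 0.0624). With the replicate number as a block the adjusted p was 0.00234 for *Slc38a4* and 0.0167 for *Zdbf2*. *Nnat*, a paternally expressed gene for a small membrane protein of neurons, varied widely between the replicates of both groups. It was at -0.48, -0.35, 0.35 and 0.65 in control ESCs and -0.87, -1.13, 0.18 and 0.18 in *L3mbtl2*-KD ESCs. Within each replicate number the *L3mbtl2*-KD value was the lower one, the log2 fold change was -0.45 (limma adjusted p = 0.443), and with the replicate number as a block it passed (adjusted p = 0.0257), while its other probe (-0.36) did not (0.0648).

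The *Snrpn*-*Ube3a* domain on chromosome 7 corresponds to the human Prader-Willi and Angelman region, and none of its 6 members passed limma's test. *Snrpn*, a paternally expressed gene for a splicing protein, was at 1.08, 1.30, 1.02 and 1.20 in control ESCs and 0.86, 1.12, 1.09 and 1.18 in *L3mbtl2*-KD ESCs. *Ube3a*, which encodes a ubiquitin ligase and is known as maternally expressed in neurons, was at -0.64, -0.87, -1.08 and -0.89 in control ESCs and -0.58, -0.67, -0.87 and -0.90 in *L3mbtl2*-KD ESCs. The groups overlapped for both genes. The log2 fold changes of the domain ran from -0.41 for *Magel2* through -0.16 for *Ndn*, -0.087 for *Snrpn* and -0.08 for *Mkrn3* to 0.11 for *Ube3a* and 0.14 for *Peg12*. The sign of *Mkrn3* turned with normexp background correction and with quantile normalization. A dim *Snrpn* probe (-0.34) passed with the replicate number as a block (adjusted p = 0.0494), and at an unadjusted p the methods' one-way test passed *Ndn* alone in this domain. *Gnas*, the gene of a G protein alpha subunit, *Grb10*, which encodes an adaptor that limits growth, and *Zrsr1*, a splicing factor retrogene, had log2 fold changes of -0.14, 0.069 and -0.17 and did not pass the test either. *Gnas* ran from -0.30 without control replicate 1 to -0.019 without *L3mbtl2*-KD replicate 1. Its dimmer tested probe (-0.39, limma adjusted p = 0.141) was lower at adjusted p without control replicate 1.

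**Figure D3:**
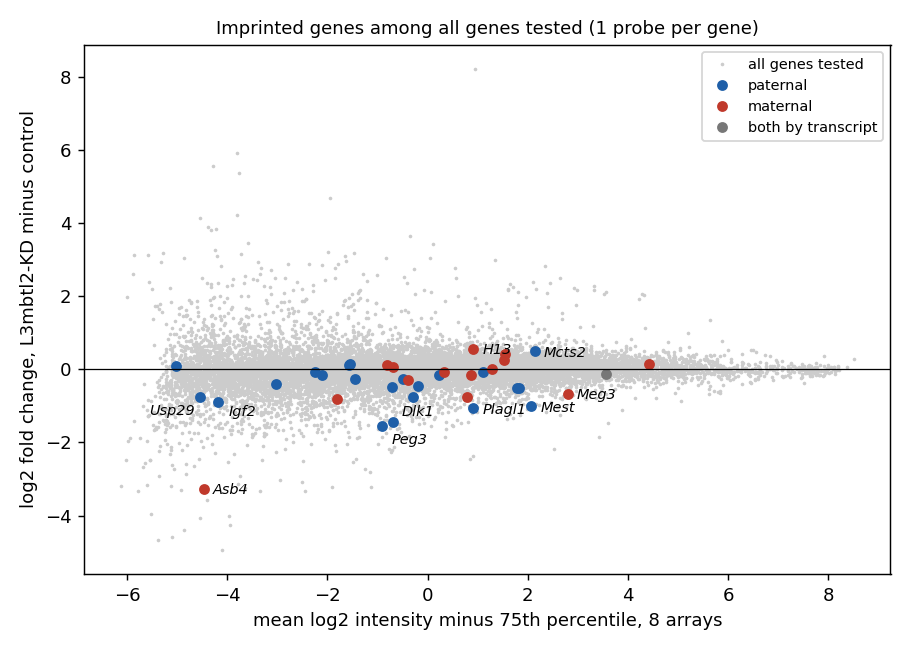
Mean log2 intensity minus the 75th percentile over the 8 arrays (horizontal axis) against log2 fold change, *L3mbtl2*-KD minus control (vertical axis), for the brightest probe of each gene tested. Grey points are all genes, and coloured points are the 37 imprinted genes by expressed allele. The imprinted genes cover the range of signal, *Meg3* and *Mest* fell at high signal, and *Asb4*, *Igf2* and *Usp29* lie at the dim end, where fitted changes spread more.

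RefSeq promoter sequences were found for 34 of the 42 members, with 52 starts. *Rtl1*, *H19*, *Cdkn1c*, *Kcnq1*, *Nap1l4*, *Peg10*, *Sgce* and *Impact* had no entry. In the 250 bases before the start, TGCCGC was found on either strand in 7 of the 52 member windows (13.5%) and in 8.68% of all 32851 promoter windows of the same length. CACGTG was found in 4 of 52 (7.69%) and in 6.02% of all, and TTCCCGCC in 1 of 52 (1.92%) and in 1.86% of all. Windows of a gene can overlap, and 2 of the 7 with TGCCGC are *Mest* windows that cover almost the same bases. None of the motifs contains another. The median number of CpG pairs in a window was 10 for the members and 6 for all promoters, with a median GC content of 54.8 and 52.4%. These matches describe the windows and show no binding. Among the members that fell by the call, the *Dlk1* window, the stretch between *Peg3* and *Usp29*, both *Asb4* windows and 1 window each of *Meg3* and *Mest* had no match, while the windows of *Mest*, *Plagl1* and *Meg3* shown above had at least 1.

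Of 25 genes that set, keep or erase imprints, 24 were tested, and 2 were up-regulated. *Ctcfl*, which encodes the testis paralogue of the insulator protein CTCF, was at -3.32, -4.61, -4.68 and -4.51 in control ESCs and 0.86, -0.29, 0.083 and 0.90 in *L3mbtl2*-KD ESCs. The log2 fold change was 4.67 (SE 0.371, limma adjusted p = 0.00026; 4.25 on slide 1 and 5.09 on slide 2), and 3.44 with normexp correction. *Dppa3*, whose product shields the maternal genome from demethylation after fertilisation, was at -3.76, -2.23, -3.30 and -3.81 in control ESCs and -1.19, -0.35, -0.77 and -1.02 in *L3mbtl2*-KD ESCs. It rose by 2.44 on the log2 scale (SE 0.351, limma adjusted p = 0.00302; 2.22 on slide 1 and 2.66 on slide 2), or by 1.85 with normexp correction. For both genes every *L3mbtl2*-KD sample lay above every control sample. *Dnmt3l*, the cofactor of de novo methylation at imprinted regions in germ cells, rose 1.98-fold, just outside the threshold (log2 fold change 0.99, SE 0.135, limma adjusted p = 0.00244).

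*Arid4a*, whose product is known to act at the *Snrpn* imprinting centre, was also higher at adjusted p (0.63, limma adjusted p = 0.0346), a call that was lost without control replicates 2, 3 or 4 or *L3mbtl2*-KD replicates 1, 2 or 3 (adjusted p up to 0.0949) and that its other tested probe did not share (0.0043, adjusted p = 0.984), and *Ehmt2*, which encodes an H3K9 methyltransferase, was lower (-0.35, limma adjusted p = 0.0149). The other 19 did not pass the test. Among them were the protectors of imprints *Zfp57* (-0.092) and *Trim28* (0.27), the methyltransferases *Dnmt1* (-0.062), *Dnmt3a* (-0.086) and *Dnmt3b* (0.18), the insulator gene *Ctcf* (0.0094) and the demethylase gene *Tet2* (-0.59). With the replicate number as a block *Dnmt3b* (adjusted p = 0.0206), *Hells* (0.0399) and *Tet2* (0.0111) passed too, as did a dimmer probe of *Ehmt1* (0.0188). The median log2 fold change of the 24 genes was 0.051, against -0.011 over all genes.

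**Figure D4:**
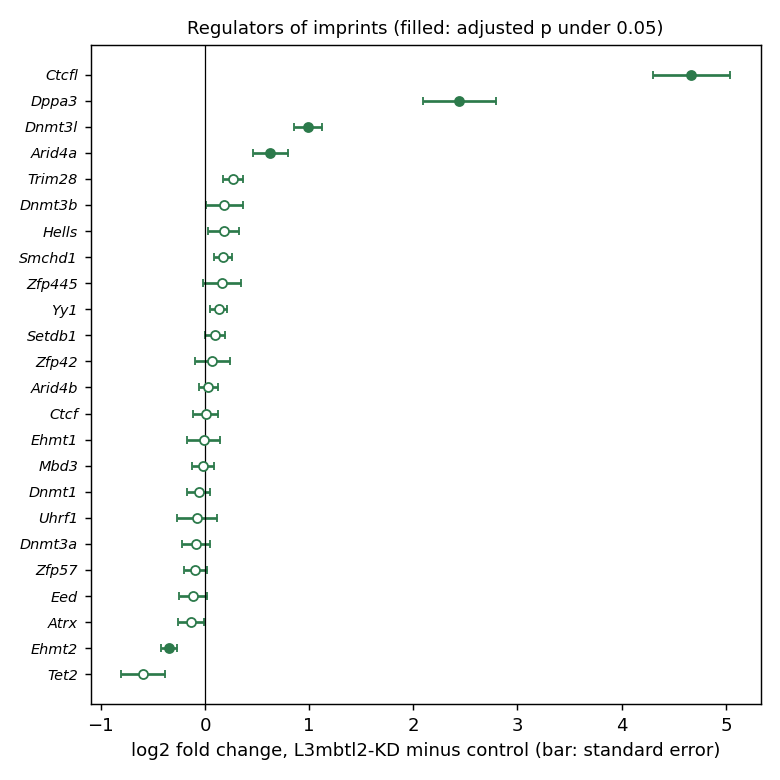
Log2 fold change, *L3mbtl2*-KD minus control (points), with its standard error (bars), for the 24 tested genes that set, keep or erase imprints, 4 samples per group. *Trim28* had no value in *L3mbtl2*-KD replicate 4, which was left out of its fit. Filled points have a limma adjusted p under 0.05. *Ctcfl* at 4.67 and *Dppa3* at 2.44 lie far to the right of the others.

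Most tested markers of feeder fibroblasts and of primitive endoderm moved in the same direction as the imprinted genes that fell. Of 19 feeder fibroblast markers 16 were tested, with a median log2 fold change of -1.51. Of these, 8 were down-regulated and 10 lower at adjusted p, while *Loxl1* was up-regulated (1.01, or 0.88 by a dimmer probe). Over all genes 3.21% were down-regulated and 11.7% lower. Of the 19, 12 were well above background on every array. *Col3a1* and *Dcn* passed the filter on dim probes through the control samples alone, a route open to genes that are bright in control ESCs. The down-regulated collagen genes were *Col1a1* (-2.22), *Col1a2* (-2.81), *Col6a1* (-1.61) and *Col3a1* (7.92-fold lower against the floor used for *Asb4*). The other down-regulated ones were *Dcn* (12.3-fold lower against that floor), *Acta2* (-2.72), *Pdgfrb* (-1.57) and *Twist2* (-1.45). Over these down-regulated markers the limma adjusted p went up to 0.0467. The groups of *Col6a1* overlapped, and it missed the adjusted p in 10 of 18 alternatives, among them without control replicates 2, 3 or 4 and without *L3mbtl2*-KD replicates 1, 3 or 4. With normexp correction *Pdgfrb* (-0.84), *Twist2* (-0.54), *Col6a1* (-0.78) and *Loxl1* (0.89) lost the 2-fold call. *Col3a1* (-1.55) and *Dcn* (-1.88) kept it, with changes smaller than those against the floor. *Loxl1* also lost it without control replicate 3 and, at 0.93, without *L3mbtl2*-KD replicate 4. A dimmer *S100a4* probe (-1.81) passed with the replicate number as a block (adjusted p = 0.0426). Summed over the list, intensity relative to the 75th percentile was 52.1, 63.3, 59.1 and 55.8 in control ESCs and 28.3, 36.6, 32.6 and 27.3 in *L3mbtl2*-KD ESCs. *Fn1* (-0.88), lower at adjusted p, gave the highest signal of the list by its mean over the 8 samples. It was followed by *Tagln* (-0.58, not past the test) and *Loxl1*, although in control ESCs *Col1a2*, *Acta2*, *Col1a1* and *Thy1* lay above *Loxl1*. *Lum*, *Postn* and *Prrx1* were not well above background on any array. Of 13 primitive endoderm markers 11 were tested, and 8 were down-regulated and 10 lower, beside the same shares over all genes. The median was -1.87 (-1.502 with the dim gene *Foxa2* set against the floor). Of the 13, 8 were well above background on every array, while *Foxa2*, *Dab2* and *Sox17* were not. The down-regulated ones included *Cubn* (-3.20), *Lama1* (-2.18), *Sox17* (-2.07), *Col4a1* (-1.87), *Pdgfra* (-1.502) and *Amn* (-1.10), with limma adjusted p up to 0.03. *Dab2* (-2.53) was down-regulated too, above background on 1 of 4 *L3mbtl2*-KD arrays and at -0.95 with normexp correction. *Foxa2*, also down-regulated, was 2.48-fold lower against the floor. With normexp correction *Pdgfra* (-0.80), *Amn* (-0.85) and *Dab2* lost the 2-fold call, *Sox17* was at -1.10 and *Foxa2* missed the adjusted p (-0.41). *Amn* missed the adjusted p in 8 of 18 alternatives, among them without control replicates 1, 3 or 4 and without *L3mbtl2*-KD replicates 1, 2 or 3. *Gata6*, a defining transcription factor of these cells, had a value of 0.064 and did not pass. Their sum was 100.2, 114, 101 and 113 in control ESCs and 72.1, 88.4, 68.9 and 62.6 in *L3mbtl2*-KD ESCs. *Sparc* (-0.40, limma adjusted p = 0.049) gave the highest signal over the 8 samples, ahead of *Lama1* and *Gata6*, although *Col4a1* and *Cubn* lay above *Gata6* in control ESCs. *Sparc* missed the adjusted p in 9 of 18 alternatives and without any sample other than *L3mbtl2*-KD replicate 2. *Ttr* and *Afp* were not well above background on any array. In both lists every *L3mbtl2*-KD sum was below every control sum. In every sample *Fn1* gave most of the feeder sum and *Sparc* most of the endoderm sum, and each fell by less than 2-fold. Fewer cells of a type and less RNA per cell cannot be told apart in such samples.

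For the 6 imprinted genes called down-regulated the sum was 15.5, 18.3, 20.5 and 25.6 in control ESCs and 10, 9.11, 11.4 and 11.7 in *L3mbtl2*-KD ESCs, with the highest signal from *Meg3*. These genes were chosen because they fell, so a lower sum follows from the choice. Over all 37 imprinted genes tested it was 81.7, 91.3, 91.7 and 100.0 in control ESCs and 76.5, 80.9, 81.8 and 84.3 in *L3mbtl2*-KD ESCs, with groups that overlapped, a lower *L3mbtl2*-KD sum within each replicate number and the highest signal from *Cd81*. Among the control samples, replicate 1 had the lowest value for 5 of the 6 imprinted genes called down-regulated. It was also lowest for 8 of the 8 down-regulated feeder markers and 1 of the 8 down-regulated primitive endoderm markers. All of these genes were chosen by their fall, and no such count was made over other genes. The part of feeder and endoderm cells in the fall of the imprinted genes was not tested. The markers of pluripotency, led in signal by *Dppa5a* (0.17), *Utf1* (0.12) and *Tdgf1* (-0.28), gave sums of 336, 351, 332 and 326 in control ESCs and 319, 355, 313 and 332 in *L3mbtl2*-KD ESCs, which overlapped and to which *Dppa5a* gave the most. Of the 10 markers 8 had a negative log2 fold change, with a median of -0.25. *Klf4* alone was lower at adjusted p (-0.70) and missed it in 5 of 18 alternatives, among them without control replicate 3 and without *L3mbtl2*-KD replicates 3 or 4. *Nanog* (-1.32, adjusted p = 0.0962) and *Fgf4* (-0.55) did not pass. With the replicate number as a block *Dppa5a* (adjusted p = 0.0316), *Tdgf1* (0.00802), *Fgf4* (0.0146) and *Tfcp2l1* (0.00491) passed as well. Of 9 trophectoderm markers 7 were tested and 0 passed limma's adjusted p (median -0.38). *Tfap2c* (-0.024), *Krt18* (-0.38) and *Eomes* (-0.14) gave the highest signal, *Krt8* and *Cdx2* passed with the block (adjusted p = 0.0219 and 0.043), and *Elf5* was not well above background on any array.

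**Figure D5:**
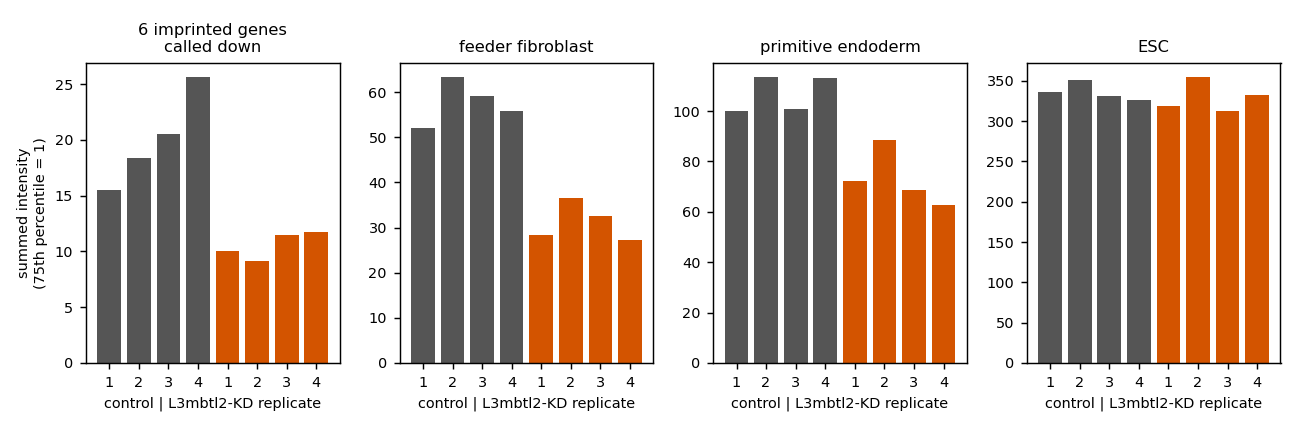
Summed intensity in units of the 75th percentile of the array (vertical axis, from 0) in each control (grey) and *L3mbtl2*-KD (orange) sample for the 6 imprinted genes called down-regulated, and for the feeder fibroblast, primitive endoderm and ESC marker lists, with 1 probe per gene. The genes of the first panel were chosen by their fall, so their sums are lower by choice. The *L3mbtl2*-KD sums are also below all control sums for the feeder and endoderm markers and overlap with them for the ESC markers.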

How the data were processed

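Expression was measured on one-colour Agilent arrays in 4 control and 4 *L3mbtl2*-KD samples. The authors deposited spot intensities from Feature Extraction 10.7.3.1, in which the scanner software had subtracted the background of each spot and no scaling between arrays had been done. The authors also deposited a table of log2 values, made by a 75 percentile shift in GeneSpring per the methods. Over 39429 probes, this table followed the shifted log2 intensities after centring each probe at its median (lowest r of an array 0.999), with array medians between -0.0589 and 0.0794. Its sign is therefore that of log2 intensity, higher meaning more RNA.

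From the deposited intensities, log2 values minus the 75th percentile of each array were computed after control spots and outlier spots had been removed, and spots of a probe were averaged. RefSeq accessions gave names to 26055 probes (GRCm38.p6, for names, neighbours and promoter sequences). The 23525 probes well above background in all samples of a group were fitted with limma 3.58.1 in R 4.3.3, which was tested on simulated data. The p-values measure the spread between samples. For 85 tested probes a sample without a value was left out of the fit.

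Members and lists were chosen with earlier results of these data known. Lists described here are regulators of imprints, other imprinted genes, and markers of feeder fibroblasts, primitive endoderm, trophectoderm, ESCs and late PGCs. Genes were named by a rule: members past the adjusted p, over 1.5-fold or in a pair of oppositely imprinted neighbours with their value in every sample, the other members by value, and from the lists those past the call and the 3 of highest signal in each cell type. Signal depends on the probe and does not rank amounts of RNA. Other genes named were chosen after their values were seen. The brightest probe stands for a gene, and other tested probes are given where their call differs.

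Both groups carry replicate numbers 1 to 4. After subtracting group means, samples had correlations of 0.38 to 0.58 for equal numbers and -0.44 to 0.25 for unequal ones, so the numbers pair the samples, as inferred from the values. Alternatives were normexp background correction (offset 50, on median spot intensities because means were absent), quantile normalization, the authors' table, other filters on dim probes, a block for slide or for replicate number, a trend on intensity, the methods' one-way test, a 1.5-fold threshold, 1 probe per gene, and leaving out each sample.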

Additional observations from a re-analysis of the deposited data

Results flagged for a closer look

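In 138 groups of 4 samples (each probe of the imprinted genes and of *L3mbtl2* in each group), the gap between the most extreme sample and its nearest neighbour was set against the range of the group. This ratio passed the 95% critical value of Dixon's test in 6 groups. Chance gives about 1 in 20 groups, or 6.9 here. The genes concerned are 5, and none of them passed limma's adjusted p.

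*Cdkn1c* in control replicate 4 (ratio 0.834) had a value of 1.70 where the other control samples averaged 1.21, and its place relative to the adjusted p depends on this sample. *Peg10* stood apart in control replicate 3 with its brighter probe (0.869, at -1.87 against -1.56) and in control replicate 2 with the other (0.921, at -2.11 against -1.71). *Dio3* stood apart in control replicate 2 (0.849, at -4.72 against -5.19). A *Gnas* probe that was too dim to test was bright in control replicate 3 alone (0.938, at -1.51 against -7.41), and the *Rtl1* probe was well above background in *L3mbtl2*-KD replicate 4 alone (0.854, at -5.00 against -7.65).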

How the results depend on the processing

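*Peg3* and *Dlk1* kept the 2-fold call in all 18 alternatives that were run on their brightest probes. The number of imprinted genes called down-regulated lay between 3 (without control replicate 4) and 9 (1.5-fold threshold), against 6. Of 662 comparisons of an imprinted gene's brightest probe with an alternative, 596 kept sign and side of the adjusted p, 33 fell short of it, 23 came to pass it and 10 changed sign.

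Normexp background correction left 194 up-regulated and 159 down-regulated genes, and *Meg3* and *Mest* lost the 2-fold call, which *Meg3* also lost with quantile normalization and with 1 probe per gene. The count of all genes down-regulated was 290 when each probe had to exceed background in every sample, since fewer were tested, and *Asb4* dropped out. A 1.5-fold threshold took in 700 rises and 1014 falls, with 1 imprinted gene among the rises, *H13*. Without the filter on dim probes *Zim1* was called down-regulated. Imprinted genes higher at adjusted p were 1 without that filter, 1 with the methods' one-way test adjusted and 4 unadjusted. With the slide as a block 4 imprinted genes (10.8%) were higher and 13 (35.1%) lower at adjusted p. Over all genes that block gave 14% higher and 15.4% lower. The cause was not tested.

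With the replicate block, which uses the pairing, 4 imprinted genes were higher (10.8%) and 15 lower (40.5%) at adjusted p, where over all genes 23.9% were higher and 26.0% lower. *Igf2r*, *Cdkn1c*, *Airn*, *Nnat*, *Snrpn*, *Zdbf2* and *Slc38a4* came to pass, and the block changed no other imprinted gene's call.

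Leaving out each sample in turn gave 3 to 6 imprinted genes down-regulated, 6 (without control replicate 3) to 10 lower and 1 to 2 higher, with 298 to 371 rises and 357 to 500 falls among all genes, and -1.48 to -1.27 for *L3mbtl2*.

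Signs turned for values near 0, and the cause was not tested. *Nap1l4* was at 0.043 with normexp correction and 0.00083 with the authors' table, and between -0.040 and 0.045 with samples left out. *Mkrn3* was at 0.024 with normexp correction and 0.014 with quantile normalization. With samples left out *Ascl2* ran from -0.22 to 0.0063, *Dio3* from -0.0018 to 0.26 and *Grb10* from -0.016 to 0.18.

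Signal over background limits *Usp29*, *Igf2*, *Dio3* and *Asb4*, whose fitted changes depend on how background is subtracted (*Asb4* was at -1.14 with normexp correction), and nothing can be said of *Zim1*, *Rtl1*, *Kcnq1*, *H19* and *Rian*. The arrays come from 1 cell line, a sort is stated for 1 group, and array positions differed between the groups. RNA of feeder and endoderm cells was not measured apart, and allele of origin was not measured.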

Other observations

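A further 40 genes known or reported as imprinted, often in the placenta or brain, were examined. Of these, 37 had a probe and 28 were tested, with a median log2 fold change of -0.17. By limma's test 4 were down-regulated, 8 were lower at adjusted p, and 0 were higher or up-regulated. Over all genes 3.21% were down-regulated and 11.7% lower. *Cobl*, which encodes an actin nucleator and lies beside *Grb10*, was at 2.63, 1.99, 2.36 and 2.04 in control ESCs and 1.11, 0.93, 0.87 and 0.67 in *L3mbtl2*-KD ESCs. The groups did not overlap, and the log2 fold change was -1.36 (SE 0.161, limma adjusted p = 0.00132). *Sfmbt2*, a Polycomb group gene that is paternally expressed in extraembryonic tissue, had a log2 fold change of -1.06 (SE 0.146, limma adjusted p = 0.00255), and *Qpct*, which encodes a cyclase of amino-terminal glutamine, one of -1.21 (SE 0.287, limma adjusted p = 0.0219). *Nap1l5*, dim in *L3mbtl2*-KD ESCs, was 2.00-fold lower against the floor used for *Asb4* (limma adjusted p = 0.0181 for its fitted change). With normexp background correction it did not pass. With that correction *Sfmbt2* (-0.90) and *Qpct* (-0.78) were lower by less than 2-fold too, while *Cobl* kept the call. *Sfmbt2* also lost the 2-fold call without control replicate 3 and, at -0.96, without *L3mbtl2*-KD replicate 2. *Qpct* lost it without control replicate 2 (-0.96). *Pon3* (-0.89), *Osbpl5* (-0.61), *Ago2* (-0.43) and *Bcl2l1* (-0.28) were lower by less than 2-fold. *Qpct* missed the adjusted p without *L3mbtl2*-KD replicates 3 or 4 (0.0595 and 0.0604). *Ago2* missed it without control replicates 3 or 4 and without *L3mbtl2*-KD replicates 1, 2 or 4 (up to 0.0899), and *Bcl2l1* without any sample other than control replicate 2 (up to 0.0806). A dimmer *Bcl2l1* probe (-0.39) did not pass. With the replicate number as a block it did (adjusted p = 0.02), and *Begain* (0.0228), *Copg2* (0.018) and *Gab1* (0.0128) were lower as well, while *Commd1* (0.0409) and a *Ddc* probe (0.0379) were higher.

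The nearest tested gene on each side of every locus was also examined, a choice made after values had been seen. Of these 34 neighbours 3 (8.82%) were lower and 1 (2.94%) higher at adjusted p, against 11.7 and 10.3% over all genes, and their median log2 fold change was -0.086. *Begain*, *Blcap*, *Th*, *Casd1*, *Copg2*, *Atp10a*, *Ddc*, *Cobl* and *Commd1* among them are also on the list of further imprinted genes. *Cobl* is therefore counted in both sets. *Igf2os* and *Gnasas1*, named as antisense transcripts of *Igf2* and *Gnas*, were counted as neighbours too, so the neighbours are not all genes outside imprinted loci. *Pnldc1*, beside *Igf2r*, was down-regulated (-1.83, limma adjusted p = 0.000239), as was *Cobl*. *Defb36*, beside *Mcts2* and *H13*, was up-regulated (2.59, limma adjusted p = 7.46e-05). *Ppp2r5c*, at the far side of the *Dlk1*-*Dio3* cluster, was lower by less than 2-fold (-0.76, limma adjusted p = 0.0027).

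Markers of late PGCs moved the other way from the imprinted genes that fell. Of the 4 late PGC markers *Ddx4* (2.83), *Dazl* (1.61) and *Stra8* (1.34) were up-regulated and *Sycp3* (-0.11) did not pass (median 1.47), and the sort used a reporter of *Ddx4*. Their part in the levels of the imprinted genes was not tested.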
